A study of Mus musculus with 14 samples.

Results

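Snrpn encodes SmN, and Snrpb encodes SmB, a closely related protein that takes the same place in the ring of Sm proteins around the small nuclear RNAs of the spliceosome. The platform annotation of the Affymetrix mouse array was searched for the symbols Snrpn, Snurf, Snrpb and Gm5802, alone or beside other symbols. These 4 of the 19324 annotated genes held 10 of the 45037 probe sets that are not controls. Of these, 6 are annotated to Snurf and Snrpn together, 1 to Snrpn alone, 2 to Snrpb and 1 to Gm5802, while 0 name Snurf alone, so Snurf and Snrpn could not be read apart.

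Snrpn and Snurf lie in the imprinted Prader-Willi domain, where the copy inherited from the father is the active one, and the mouse imprinting center spans the region where their shared transcript starts. One transcript carries both reading frames: a short upstream frame for the SNURF protein and then the frame for SmN. SmN is known for its abundance in neurons, whereas SmB is made in most tissues. RefSeq lists Gm5802 as a pseudogene on chromosome 14, Snrpb on chromosome 2, and Snrpn and Snurf on chromosome 7.

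The arrays measured total RNA of whole brain and of vastus lateralis, a thigh muscle, from mice with a deletion of the imprinting center (PWS-IC del) and from wild-type littermates of matched age. There were 4 wild-type brain, 3 PWS-IC del brain, 4 wild-type muscle and 3 PWS-IC del muscle samples, each on its own 1-colour array, and all mice were F1 hybrids of FVB and B6. The labels state neither an age, nor the extent of the deletion, nor the parent that passed it on, nor whether brain and muscle came from the same animals. The samples are named biological replicas, so the p-values measure the spread between them.

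Levels are log2(intensity + 16), a scale on which an intensity of 0 reads 4.00 and changes near that floor are compressed. Genotype differences give mutant minus control, with limma's p-values adjusted by Benjamini-Hochberg over the 45037 probe sets and a threshold of 0.05. Median intensity was 142.0 to 170.1 in brain arrays and 88.7 to 96.4 in muscle arrays, and arrays of a tissue correlated at 0.952 or more. The 7 neuronal markers were at 11.61 or more in every brain array and at 9.23 or less in every muscle array. The 6 skeletal muscle markers were at 13.22 or more in every muscle array and at 11.39 or less in brain. The skeletal muscle list averaged 10.41 and 9.71 in brain wild-type 1 and 3, against 6.51 to 7.08 in the other brain arrays. The list of striatal neurons was highest in brain wild-type 1 and 2, at 11.20 and 10.6. Other lists of brain regions differed between single arrays as well. The cerebellar list averaged 13.46 in PWS-IC del 2 and 9.42 to 11.35 in the other brain arrays, and all 4 of its genes had higher means in mutants. The pituitary list averaged 9.22 in wild-type 3 and 6.09 to 6.56 elsewhere, and the choroid plexus list ranged from 7.75 to 10.84 over the brain arrays. Means in mutant brain were higher for all 4 choroid plexus and all 4 astrocyte genes. They were lower for all 6 skeletal muscle, all 5 striatal and all 4 endothelial genes. The endothelial genes also had lower means in mutant muscle. None of these lists had a gene past the threshold between genotypes, and their part in the results was not tested. The brain counts are also given without wild-type 1 and 2, without wild-type 1 and 3 and without each single array.

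Because the imprinting center overlaps the start of the Snurf and Snrpn transcript, the start regions are shown here from RefSeq on build GRCm38.p6, each 300 bases long, with 250 before the start and 50 after it. RefSeq gives Snrpn 4 such windows on the minus strand. One of them, chr7:60005150-60005449, is also the only window of Snurf. The most distant, chr7:60450128-60450427, lies where RefSeq also begins Snhg14, a long noncoding transcript, and the Snrpn span lies inside that of Snhg14. The capitals mark ACGCATGCGT, the longest run that all 4 windows hold. It was chosen after reading the sequences, reads the same on both strands and was the only motif searched.
Shared Snurf and Snrpn start: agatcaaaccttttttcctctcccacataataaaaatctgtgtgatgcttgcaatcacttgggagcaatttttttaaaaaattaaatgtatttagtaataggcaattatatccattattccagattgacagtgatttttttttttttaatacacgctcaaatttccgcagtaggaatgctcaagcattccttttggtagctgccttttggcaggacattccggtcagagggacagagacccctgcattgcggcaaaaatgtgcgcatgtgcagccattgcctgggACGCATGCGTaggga
Most distant Snrpn start: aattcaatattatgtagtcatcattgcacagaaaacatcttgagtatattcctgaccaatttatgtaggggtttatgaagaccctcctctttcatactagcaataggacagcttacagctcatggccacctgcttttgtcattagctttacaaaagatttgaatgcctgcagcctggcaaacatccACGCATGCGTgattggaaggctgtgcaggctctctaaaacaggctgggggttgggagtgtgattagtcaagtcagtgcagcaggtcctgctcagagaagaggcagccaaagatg
The run begins 35 bases after the shared start and 64 bases before the distant one. It occurs in 33 of 32817 RefSeq windows of the same length, which is 0.101%, counting the 4 windows it was taken from. The 3 windows other than the shared one resembled each other, with 79.7% to 81.4% identity in global alignments, and the shared start matched them at 50.6% to 52.9%. CpG pairs numbered 7 in the shared window and 2 to 4 in the others, and the median over all windows was 7. The probe sets do not report which start a transcript used.

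In brain all 7 probe sets that hold Snrpn fell in PWS-IC del mice, and the Gm5802 probe set fell with them, while neither Snrpb probe set passed the test. These 8 falls compare with 0.0622% of all probe sets called lower and 0 called higher. The groups did not overlap for the same 8 members, against 4.03% of all probe sets not overlapping with mutants lower and 3.69% with mutants higher. The falls of the Snrpn probe sets ranged from -8.86 to -1.98.

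The deepest fall was on 1421063_s_at, annotated to Snurf and Snrpn, whose s marks probes shared by several transcripts. It stood at 12.98, 13.03, 13.24 and 13.14 in wild-type brain 1 to 4 and at 4.42, 4.29 and 4.00 in PWS-IC del brain 1 to 3. Every mutant array was thus at or near the floor. Mean intensity was 8769 in wild-type and 2.98 in PWS-IC del brain, and the difference of -8.86 ± 0.13 (SE) had the lowest value of all 45037 probe sets (adjusted p = 4.82e-08). Because the mutant values sit at the floor, this size follows the constant added, from -11.47 with 1 to -7.04 with 64.

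The probe set annotated to Snrpn alone, 1432096_at, had the second lowest difference in brain. Its levels were 10.29, 10.59, 10.64 and 10.55 in wild-type and 6.48, 5.03 and 5.44 in PWS-IC del brain. The groups lay far apart, and the mutants spread more widely (SD 0.75, n = 3) than the wild-types (SD 0.16, n = 4), with PWS-IC del 1 the highest. The fall of 4.87 ± 0.30 (SE; adjusted p = 4.39e-04) left 2.69% of the wild-type mean on the linear intensity scale, or 1.51% without PWS-IC del 1. Mutant intensities went down to 16.6, near the floor, so the size follows the constant here too, from -5.44 with 1 to -3.91 with 64.

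A further 3 probe sets of Snurf and Snrpn kept a signal well above the floor in mutant brain. On 1415895_at, wild-type brain was at 13.19, 13.35, 13.19 and 13.12 and PWS-IC del brain at 10.79, 10.86 and 10.93. The fall of 2.35 ± 0.11 (SE) left 19.5% of the intensity (adjusted p = 1.04e-04). On 1415896_x_at, whose x marks probes that can also match other similar sequences, the levels were 12.98, 13.25, 13.06 and 13.01 against 10.07, 10.29 and 10.39. No array of a genotype came near the other, and the fall was 2.82 ± 0.13 with 13.98% of the intensity left (adjusted p = 9.57e-05). On 1435716_x_at, levels of 12.94, 12.89, 12.99 and 12.98 stood against linear intensities of 1007, 1140 and 1006 in mutants, a mean level of 10.06. The fall of 2.89 ± 0.10 left 13.3% of the intensity (adjusted p = 2.27e-05). The mutant signal was thus reduced on these 3 without reaching the floor.

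The last pair of Snurf and Snrpn probe sets is also of the x type. On 1441905_x_at, wild-type brain was at 10.51, 10.71, 10.75 and 10.69 and PWS-IC del brain at 6.86, 7.09 and 6.66, a fall of 3.79 ± 0.13 (adjusted p = 2.27e-05). On 1460075_x_at, levels of 6.34, 6.58, 6.91 and 6.73 stood against 4.33, 4.84 and 4.80, a fall of 1.98 ± 0.18 (adjusted p = 0.00554). Its mutant intensities were all under 16, so its size follows the constant too, from -3.13 with 1 to -1.01 with 64. With a constant of 1 its adjusted p was 0.0651.

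Gm5802 is read by 1 probe set, 1455890_x_at, again of the x type. Wild-type brain was at 11.86, 11.75, 11.85 and 11.62 and PWS-IC del brain at 9.38, 9.52 and 9.43. All mutants lay below all wild-types, and the fall of 2.33 ± 0.11 (SE; adjusted p = 1.14e-04) had an interval of -2.58 to -2.07, which overlaps the -2.60 to -2.10 of 1415895_at. The intensity left in brain was 19.5% for both, while in muscle it was 32.8% for Gm5802 and 55.0% for 1415895_at. The x type and the annotation do not tell how much of this signal comes from Gm5802 itself, which was not tested.

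Snrpb, the paralog made in most tissues, did not follow. On 1419260_a_at, whose a marks transcript forms of 1 gene, wild-type brain was at 10.76, 10.91, 10.89 and 10.90 and PWS-IC del brain at 10.84, 11.02 and 11.08. The groups overlapped, and the difference was 0.11 with a 95% interval of -0.14 to 0.37 (adjusted p = 0.695). On 1437193_s_at, levels of 10.59, 10.90, 10.80 and 10.86 stood against 10.82, 11.06 and 11.06, with a difference of 0.19, an interval of -0.09 to 0.48 and an adjusted p of 0.644. Both intervals begin at -0.14 or higher, far from the -1.98 of the smallest Snrpn fall. A p above the threshold does not show that Snrpb was the same in both genotypes.

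Neuronal markers did not pass the test beside these falls. Their mean over 7 genes was 12.83 to 12.90 in wild-type and 12.79 to 12.90 in PWS-IC del brain, and 0 of 7 passed. In such tissue samples, fewer cells of a type and less RNA per cell cannot be told apart. The same number of members, 8 of 10, passed without brain wild-type 1 and 2, without wild-type 1 and 3, and in each of the 7 fits that left out 1 array.

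**Figure D1:**
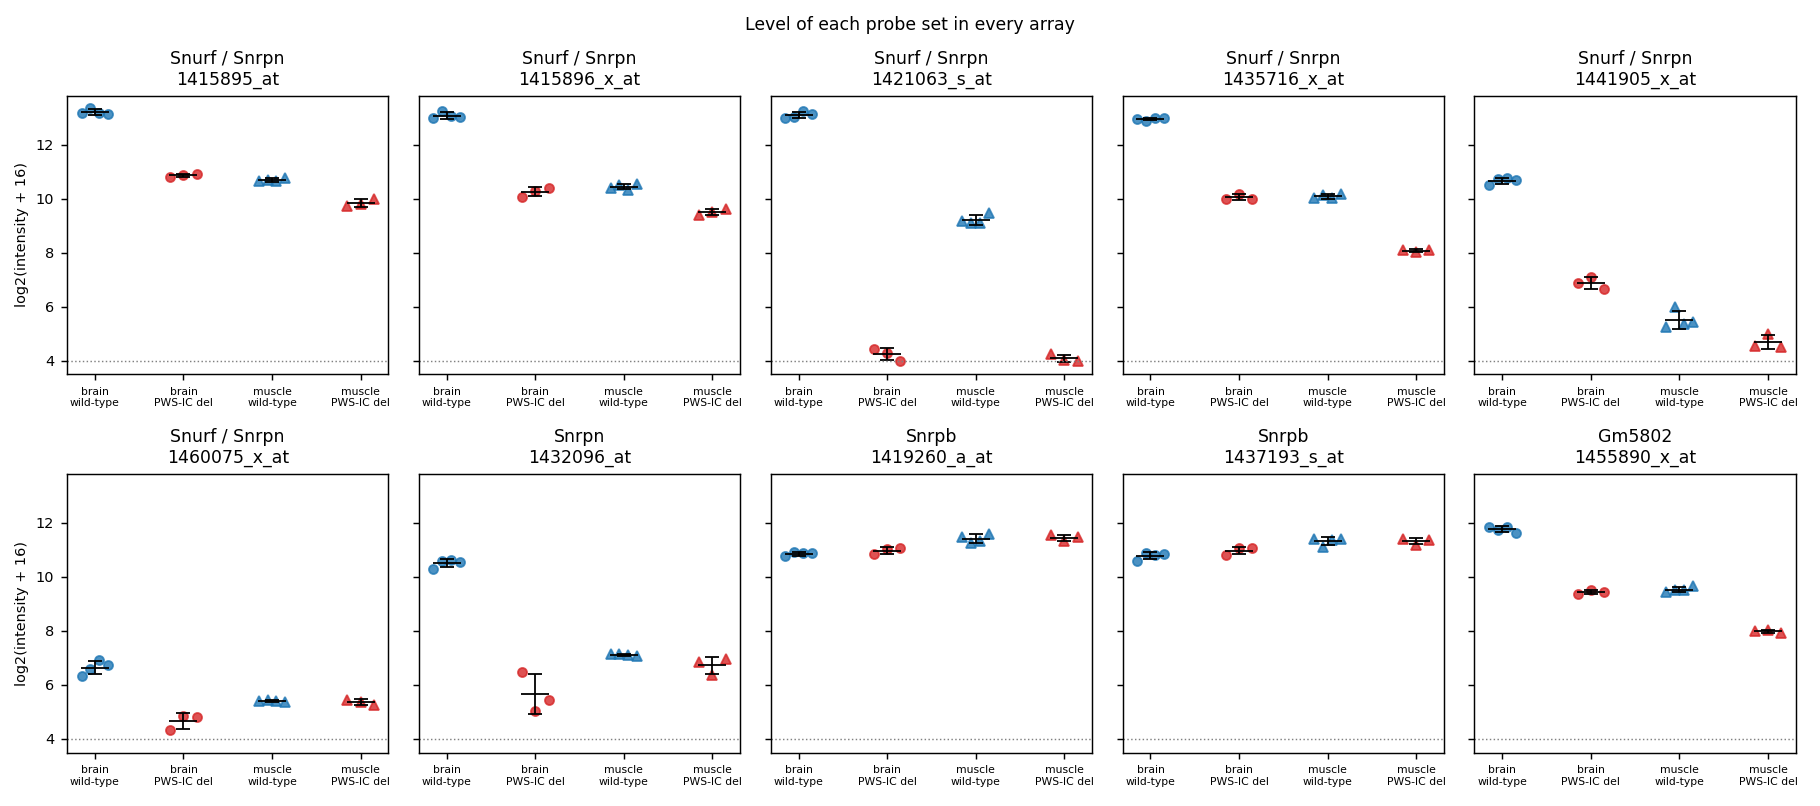
Each panel plots 1 probe set, with log2(intensity + 16) of every array on the vertical axis (circles brain, triangles muscle, blue wild-type, red PWS-IC del), black bars for the mean ± SD (n = 4 or 3) and a dotted line at the floor of 4.00. The probe set 1421063_s_at falls to the floor in both tissues, 1455890_x_at of Gm5802 falls in both tissues, and the genotypes overlap within each tissue in both Snrpb panels.

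In muscle, 4 of the 7 Snrpn probe sets and the Gm5802 probe set fell, and Snrpb again did not pass. These 5 of 10 members compare with 0.0555% of all probe sets called lower and 0.00888% called higher. The groups did not overlap for 7 members, all lower in mutants, against 6.06% of all probe sets in that direction and 4.59% in the other. Of the 5 calls, 3 were kept in all 7 fits that left out 1 array.

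The deepest fall was again on 1421063_s_at. Wild-type muscle was at 9.16, 9.11, 9.10 and 9.47 and PWS-IC del muscle at 4.23, 4.03 and 4.00. As in brain, all mutants lay at or near the floor and far from the wild-types. The difference of -5.12 ± 0.12 (SE; adjusted p = 6.04e-07) was the lowest of all probe sets, and it ran from -8.40 to -3.30 with constants of 1 and 64. Mean intensity was 579 in wild-type and 1.04 in PWS-IC del muscle.

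The next was 1435716_x_at, with 10.01, 10.14, 10.01 and 10.19 in wild-type and 8.11, 8.01 and 8.10 in PWS-IC del muscle. The fall of 2.01 ± 0.09 (SE) left 23.6% of the intensity (adjusted p = 7.92e-05). Gm5802 had 9.44, 9.51, 9.50 and 9.67 against 8.01, 8.03 and 7.91. All mutants were lower, and the fall of 1.55 ± 0.09 left 32.8% of the intensity (adjusted p = 5.32e-04). Its interval of -1.76 to -1.33 overlapped neither the -2.22 to -1.80 of 1435716_x_at nor the -1.08 to -0.63 of 1415895_at.

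The other 2 calls in muscle were smaller and less firm. On 1415895_at, wild-type muscle was at 10.65, 10.69, 10.65 and 10.78 and PWS-IC del muscle at 9.72, 9.81 and 9.98, a fall of 0.85 ± 0.10 (SE; adjusted p = 0.0252) with 55.0% of the intensity left. On 1415896_x_at, levels of 10.41, 10.49, 10.33 and 10.53 stood against 9.39, 9.51 and 9.62, a fall of 0.94 ± 0.10 (adjusted p = 0.0156) with 51.7% left. Neither pair of groups overlapped. Both calls were lost when any of wild-type 1 to 4, PWS-IC del 1 or PWS-IC del 2 was left out, with adjusted p up to 0.157 and 0.106, and the sizes then stayed between -0.98 and -0.80. The call of 1415895_at was also lost after quantile normalization (adjusted p = 0.0547), and both were lost with a constant of 1 (adjusted p = 0.0723 and 0.0526).

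The remaining 3 Snrpn probe sets did not pass in muscle. On 1432096_at, wild-type muscle was at 7.16, 7.14, 7.10 and 7.07 and PWS-IC del muscle at 6.85, 6.37 and 6.97. All mutants lay below all wild-types, but the difference of -0.39 (interval -0.71 to -0.07) had an adjusted p of 0.405. On 1441905_x_at, levels of 5.23, 5.97, 5.34 and 5.42 stood against 4.53, 4.98 and 4.52, close to the floor, with a difference of -0.82 and an adjusted p of 0.221. The groups of 1460075_x_at overlapped at 5.35 to 5.44 and 5.24 to 5.45, with a difference of -0.04 (adjusted p = 0.903).

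Snrpb in muscle was at 11.49, 11.26, 11.32 and 11.61 in wild-type and 11.55, 11.34 and 11.48 in PWS-IC del on 1419260_a_at. The genotypes overlapped, with a difference of 0.04 and an interval of -0.22 to 0.29 (adjusted p = 0.938). On 1437193_s_at the wild-type arrays read 11.42, 11.10, 11.37 and 11.41 and the mutants 11.40, 11.19 and 11.36. The difference was -0.0041, with an interval of -0.26 to 0.25 (adjusted p = 0.994). Neuronal markers in muscle averaged 5.81 to 7.57 in wild-type arrays, with a range of 6.11 to 6.60 over the mutants, and 0 of 7 passed. All 7 had lower means in mutant muscle, the direction of the Snrpn falls, and their part in those was not tested.

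**Figure D2:**
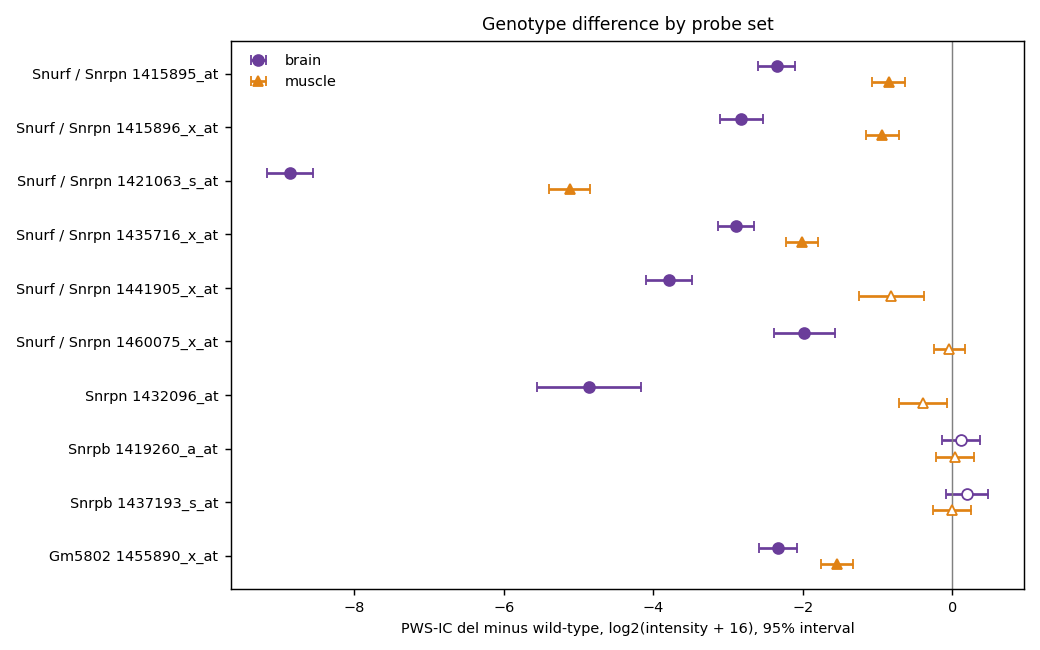
Points show the genotype difference of each probe set, PWS-IC del minus wild-type on the log2(intensity + 16) scale, with its 95% interval, for brain (circles) and muscle (triangles), and filled points passed the test. The Snrpn and Gm5802 points lie left of 0 in brain, and the 4 Snrpb intervals cross 0.

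Whether the genotype difference itself differed between tissues was tested with an interaction contrast over all 14 arrays, brain minus muscle. All 7 Snrpn probe sets passed, each with the larger fall in brain, against 0.0555% of all probe sets called in that direction. The contrast ran from -4.48 ± 0.36 (SE) on 1432096_at (adjusted p = 5.67e-05) to -0.88 ± 0.13 on 1435716_x_at (adjusted p = 0.0151). On 1421063_s_at it was -3.74, where mutants of both tissues were at the floor and the wild-type levels set the size. With a constant of 1 in place of 16 this contrast was -3.06 with an adjusted p of 0.580, and that of 1441905_x_at had 0.0880. Wild-type muscle averaged 9.21 on 1421063_s_at, 7.12 on 1432096_at, 5.49 on 1441905_x_at and 5.40 on 1460075_x_at. Their brain differences were -8.86, -4.87, -3.79 and -1.98. With a floor of 4.00, muscle could not fall that far on this scale. For these probe sets the larger fall in brain was thus set by the level of wild-type muscle. The call of 1435716_x_at was lost when PWS-IC del 1 or 3 of brain, wild-type 3 of either tissue or any PWS-IC del array of muscle was left out, with values of -0.91 to -0.85, and after median centring (adjusted p = 0.0534). Gm5802 had -0.78 ± 0.14, which missed the threshold (adjusted p = 0.0757). It passed in 5 of 8 other settings and without brain wild-type 4 (adjusted p = 0.0499). Snrpb was at 0.08 and 0.20, with adjusted p of 0.949 and 0.922.

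Between the tissues of wild-type mice, all 7 Snrpn probe sets and Gm5802 were higher in brain, and both Snrpb probe sets were higher in muscle. This contrast shares its wild-type arrays with the genotype comparisons. The whole array was shifted, with a median brain minus muscle difference of 0.43 over all probe sets, -0.11 after quantile normalization and -0.24 after centring each array on its median. At the deposited scale 54.8% of probe sets were called higher and 15.9% lower in brain, and after quantile normalization the calls were 12719 higher and 16805 lower. The member calls kept their direction under these scalings, but some sizes moved.

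Snrpn ranged from 1.24 ± 0.13 (SE) on 1460075_x_at to 5.17 ± 0.16 on 1441905_x_at, with 2.52 on 1415895_at, 2.63 on 1415896_x_at, 2.86 on 1435716_x_at, 3.40 on 1432096_at and 3.89 on 1421063_s_at. The largest adjusted p among them was 1.11e-06. Gm5802 was 2.24 ± 0.09 higher in brain (adjusted p = 1.53e-11). Snrpb was lower in brain by -0.55 ± 0.10 (adjusted p = 1.90e-04) and -0.54 ± 0.11 (adjusted p = 4.73e-04) on its 2 probe sets. Both Snrpb differences were -1.06 after quantile normalization, and they were -1.23 and -1.21 after median centring. Under the same scalings 1460075_x_at had 0.73 and 0.56.

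In PWS-IC del mice the tissue difference was smaller or turned round on the Snrpn probe sets. This restates the interaction contrast, which comes from the same fit, and is no separate result. At the deposited scale 48.8% of probe sets were called higher and 15.1% lower in brain, and after quantile normalization 12091 higher and 16044 lower. Brain remained higher on 4 of the 7, by 1.02 on 1415895_at, 0.74 on 1415896_x_at, 1.98 on 1435716_x_at and 2.19 on 1441905_x_at. The second of these was at -0.058 after quantile normalization (adjusted p = 0.730) and 0.11 after median centring (adjusted p = 0.468). On 1421063_s_at the tissues did not differ past the threshold, at 0.15 with an interval of -0.15 to 0.44 (adjusted p = 0.359). After median centring the difference was -0.48 and passed, with brain lower (adjusted p = 0.0086). Brain was lower on 1432096_at by -1.08 (adjusted p = 0.00304, or -0.52 with adjusted p = 0.0874 with array weights) and on 1460075_x_at by -0.70 (adjusted p = 0.00116). Gm5802 was 1.46 higher in brain (adjusted p = 1.15e-08). Snrpb was lower in brain in these mice too, by -0.48 (adjusted p = 0.00237) and -0.34 (adjusted p = 0.0287). The latter call was lost without PWS-IC del 1 of either tissue or PWS-IC del 3 of muscle, at -0.32 to -0.26. Scaling moved these sizes more than those of the wild-types. After quantile normalization and median centring, 1415895_at was at 0.30 and 0.39, and Gm5802 was at 0.57 and 0.82. On 1435716_x_at the values were 1.11 and 1.35. Those of 1432096_at were -1.58 and -1.71, and those of 1460075_x_at -1.01 and -1.33. Snrpb had -1.03 and -1.11 on 1419260_a_at and -0.91 and -0.97 on 1437193_s_at.

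The order of the 4 groups was thus shared by some probe sets and not others. Wild-type brain was highest on all 7 Snrpn probe sets and on Gm5802, and it overlapped no other group there. Mutant brain and wild-type muscle overlapped on 1415896_x_at, 1435716_x_at and Gm5802, with means of 10.25 and 10.44, 10.06 and 10.09, and 9.44 and 9.53. Mutant brain was above wild-type muscle on 1415895_at, where 10.79 and 10.78 nearly touched, and on 1441905_x_at, and below it on 1421063_s_at, 1432096_at and 1460075_x_at. Mutant muscle was lowest on 1415895_at, 1415896_x_at, 1435716_x_at, 1441905_x_at and Gm5802. On Snrpb the order was by tissue, with the genotypes overlapping within each.

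**Figure D3:**
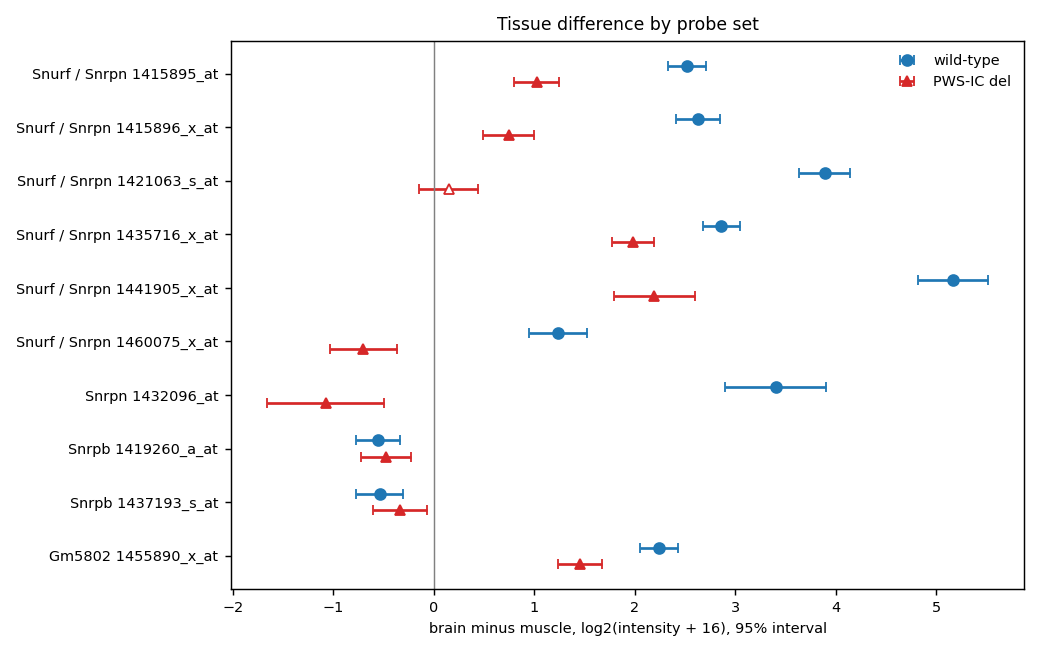
Points show brain minus muscle on the log2(intensity + 16) scale with the 95% interval, for wild-type (circles) and PWS-IC del (triangles) arrays, and filled points passed the test. Wild-type points of Snrpn and Gm5802 lie right of 0, and both Snrpb probe sets lie left of 0 in both genotypes.

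Among 18190 other genes with a probe set of their own, the pattern over the 14 arrays was compared with that of 1415895_at, the Snrpn probe set with the highest mean, by Pearson's r, which here mainly follows the 4 groups. Snhg14 had the highest value, 0.979, with mean levels of 11.72 and 8.08 in wild-type and PWS-IC del brain and 8.29 and 6.09 in muscle. The neighbouring imprinted gene Ndn, which encodes necdin, had 0.977, with 12.44 and 8.31 in brain and 8.84 and 7.57 in muscle. Zscan5b, a zinc-finger gene, had 0.959, at 7.21 in wild-type and 6.499 in mutant brain, and did not pass (adjusted p = 0.252). Papolb, a poly(A) polymerase gene, had 0.946 and did not pass either (adjusted p = 0.644), at 6.90 and 6.28 in brain. The noncoding B230209E15Rik of the same domain had 0.942, with 10.29 and 7.02 in brain and 4.50 and 4.18 in muscle.

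Genes for other proteins of the splicing particles were read beside Snrpn. Of 78 genes in 8 lists, 71 had a probe set with 1 symbol. Limma called 0 of them in brain and 0 in muscle, against 0.0622% and 0.0644% of all probe sets in either direction. With shares this small, 0 calls among 71 genes do not set the lists apart. At an unadjusted p under 0.05 there were 11 in brain (15.5%, against 6.39% of all probe sets) and 5 in muscle (7.04%, against 10.3%). The median difference over the 71 was 0.15 in brain, with 54 positive, and 0.05 in muscle, where the medians over all probe sets were -0.01 and -0.0043. Without brain wild-type 1 and 2 the brain median was 0.08, and without 1 and 3 it was 0.07. Under these omissions, in that order, the brain medians were 0.12 and 0.13 for U1 and U2 proteins, 0.07 and 0.01 for the U4, U6 and U5 particle, and 0.14 and 0.09 for the minor spliceosome. They were 0.08 and 0.06 for LSm genes and 0.17 and 0.15 for the SMN complex. For methylation and import they were 0.01 and 0.01, and for the other splicing factors 0.01 and 0.04.

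Of the Sm ring that SmN and SmB join, 4 of 6 other members were measured, since Snrpd1 and Snrpd2 share their probe sets with a second symbol. In brain Snrpd3 was at 0.22, Snrpe at 0.26, Snrpf at 0.44 and Snrpg at 0.25, each with an adjusted p of 0.644. The median of 0.25 became 0.14 without wild-type 1 and 2, and 0.17 without 1 and 3. In muscle they were at -0.17, 0.09, -0.01 and -0.0011 in that order.

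The proteins bound to the U1 and U2 small nuclear RNAs had a median of 0.21 over 4 genes in brain, with Snrpb2 at 0.37, Snrpa1 at 0.27 and Snrnp70 at -0.31. Their muscle median was 0.13, with Snrpa1 at 0.26, Snrpb2 at 0.17 and Snrpc at 0.10. The 13 genes of the larger particle of U4, U6 and U5 had medians of 0.09 and 0.02, among them Snrnp27 at 0.37, Prpf31 at 0.26 and Prpf3 at 0.18 in brain and Prpf4 at -0.34, Ddx23 at -0.15 and Prpf6 at 0.15 in muscle. The 7 genes of the minor spliceosome, which removes a rare class of introns, had medians of 0.19 and 0.08. Snrnp48 was at 0.52 in brain and 0.41 in muscle, Rnpc3 at 0.24 and 0.25, Zcrb1 at 0.17 in brain and Snrnp35 at -0.18 in muscle.

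The 13 genes of the LSm list, some of whose products form the related rings on U6 and on decaying mRNA, had medians of 0.15 and 0.02. Lsm2 was at 0.44, Lsm8 at 0.40 and Lsm1 at 0.41 in brain, and Lsm1 at 0.26, Lsm12 at 0.24 and Lsm14a at -0.20 in muscle. The SMN complex, which loads Sm proteins onto RNA, had medians of 0.22 and 0.07 over 7 genes. Smn1 was at 0.45, Ddx20 at 0.32 and Gemin2 at 0.22 in brain, and Gemin8 at 0.18, Strap at 0.13 and Gemin5 at -0.09 in muscle. The 8 genes for methylation of Sm proteins and import of the particles had medians of 0.12 and 0.05, with Wdr77 at 0.19 and 0.12, Prmt5 at 0.15 and Coprs at 0.32 in brain, and Coprs at -0.09 and Snupn at 0.10 in muscle. The 15 other splicing factors, a list that includes Rbfox and Nova genes, had medians of -0.02 and 0.08, with Srsf5 at -0.38 and -0.29. In brain Srsf3 was at 0.44 and Hnrnpc at 0.14, and in muscle Rbfox2 was at -0.48 and Nova1 at 0.27.

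**Figure D4:**
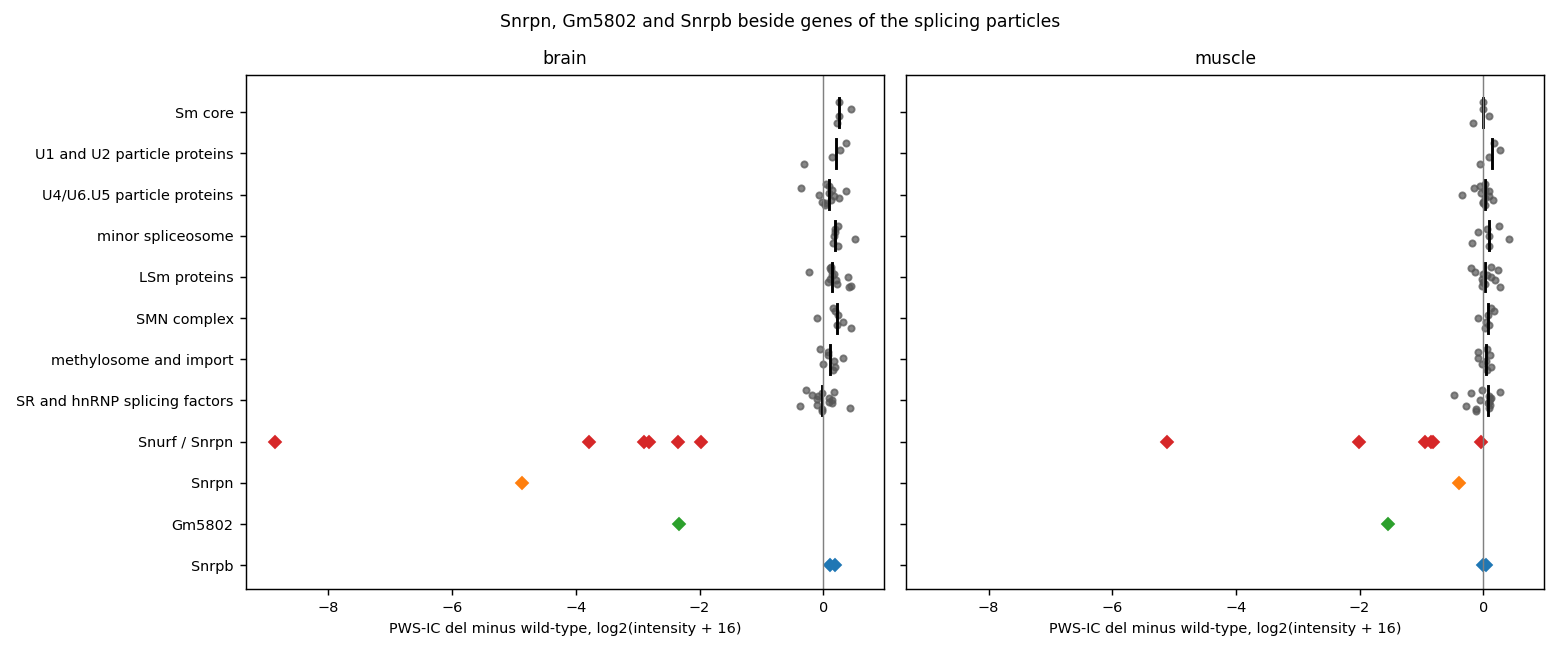
Grey points give the genotype difference, PWS-IC del minus wild-type in log2(intensity + 16), of each gene of 8 splicing lists with the list median as a black bar, for brain and muscle, and diamonds give the member probe sets. The list genes lie between -0.38 and 0.52 in brain, where the Snrpn and Gm5802 diamonds lie at -1.98 or lower and those of Snrpb at 0.11 and 0.19.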

How the data were processed

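The deposited table holds a linear intensity for each probe set, for which the submitters' processing notes name PLIER and Affymetrix Expression Console. No version, setting or scaling step is given there. The 45101 rows had 0 missing values, 0 values at or below 0 and 0 identical arrays, and 64 control probe sets were left out.

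Values were taken as log2(intensity + 16) with no filter on low values. A filter at the 0.25 quantile would keep 9 of the 10 members in brain and 8 in muscle. Genotypes were compared within a tissue by limma 3.58.1 (lmFit, eBayes) under R 4.3.3, and 1 fit of all 14 arrays gave the interaction and the tissue contrasts, 2-sided. The fits were tested on simulated data. List genes used the brightest probe set with 1 symbol. Symbols came from the platform annotation, and all 4 members matched RefSeq by gene number. Start windows came from RefSeq and were aligned with Biopython 1.88.

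The named genes are all member probe sets, the Sm ring genes, up to 3 genes with the smallest p per list and tissue, and the 5 genes most like 1415895_at. Members, lists and the arrays left out in pairs were chosen with earlier results of these data known. Alternatives covered the constant added, scaling, the filter, variance trend, array weights, replicate block, joint fit and left-out arrays.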

Additional observations from a re-analysis of the deposited data

Results flagged for a closer look

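In 28 groups of 4 wild-type arrays (14 probe sets of the members and the Sm ring), 1 array stood apart in 3. The measure was the gap to the nearest array divided by the range of the 4, here 0.85, 0.83 and 0.89. For a single group chance gives about 1 in 20. The groups share arrays and transcripts, so that rate does not carry over to the count of 3. Wild-type muscle 4 read 9.47 on 1421063_s_at against 9.10 to 9.16 in the others. Wild-type muscle 2 read 11.10 on the Snrpb probe set 1437193_s_at against 11.37 to 11.42. Wild-type brain 4 read 11.59 on Snrpg against 11.22 to 11.26.

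On the log2(intensity + 16) scale the genotype difference was larger in brain than in muscle on all 7 probe sets holding Snrpn, by the interaction contrast of limma with adjusted p in parentheses. It was -1.50 on 1415895_at (1.88e-04), -1.89 on 1415896_x_at (6.14e-05), -3.74 on 1421063_s_at (3.59e-07) and -0.88 on 1435716_x_at (0.0151). The size on 1421063_s_at was set by the wild-type levels, since mutants of both tissues were at the floor, and with a constant of 1 it did not pass (0.580). It was -2.98 on 1441905_x_at (6.45e-05), -1.94 on 1460075_x_at (7.68e-04) and -4.48 on 1432096_at (5.67e-05). With a constant of 1 the contrast of 1441905_x_at, whose mutant muscle arrays all had intensities under 16, did not pass (0.0880). On 1421063_s_at, 1432096_at, 1441905_x_at and 1460075_x_at wild-type muscle lay too near the floor for a fall as large as in brain.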

How the results depend on the processing

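The number of members past the threshold was 6 to 8 in brain over 11 alternatives and 8 in each fit without 1 array. In muscle it was 3 to 5 over 9 alternatives, with 3 for a constant of 1 and 3 with the replicate block, and 3 to 5 without 1 array. The interaction had 5 to 8 and, without 1 array, 6 to 8. Arrays with the same replicate number had little in common (correlations of deviations from -0.309 to 0.303, 2 of 13 above 0.1). This cannot settle whether brain and muscle came from the same animals. The main tissue and interaction contrasts took all arrays as independent. With the replicate block 6 members passed in brain, where 1432096_at and 1460075_x_at were lost at adjusted p = 0.0854. In muscle 1415895_at (-0.83) and 1415896_x_at (-0.91) were lost at 0.309 and 0.305, and for the interaction 1435716_x_at (-0.88) at 0.0934. The list genes stayed at 0. Snrpb in muscle, uncalled throughout, changed sign: 1437193_s_at was at 0.029 after median centring and 0.025 with the block, and 1419260_a_at was at -0.025 with array weights. Without 1 array they ranged from -0.079 to 0.061 and -0.016 to 0.098, and 1460075_x_at from -0.088 to 0.017. Brain minus muscle in PWS-IC del mice turned to -0.058 on 1415896_x_at after quantile normalization and to -0.48 on 1421063_s_at after median centring, where it passed (adjusted p = 0.0086). Over all probe sets 28 passed in brain and 11 with the block. In muscle 29 passed, 57 with a constant of 64, 48 with the filter, 78 with a trend, 190 with array weights, 11 with the block and 15 to 22 without 1 array. For the interaction 29 passed and 19 with a constant of 1. Signal near the floor limits 1421063_s_at, 1432096_at, 1441905_x_at and 1460075_x_at.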
